A study of Drosophila melanogaster with 4 samples.

Results

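Aminoacyl-tRNA synthetases are the enzymes that load each amino acid onto its matching tRNA. The count table of this series names 22 of their genes with the older prefix Aats- followed by the code of the amino acid, and these 22 of 16727 listed genes are described here. No gene of the table carries the newer style of name, such as AlaRS. RNA was measured in whole Drosophila melanogaster embryos, 16 to 18 h old, laid over 2 h and kept at 25 °C. All embryos were homozygous for a deletion of the histone gene locus (deltaHisC) and were picked by GFP. In group H3.2-WT, genotype deltaHisC; 12xH3.2-WT, they carried 12 copies of a transgenic histone array with wild-type H3.2. In group H3.2-K4R, genotype deltaHisC; 12xH3.2-K4R, the array encoded H3.2 in which lysine 4 was changed to arginine; methylation of that lysine marks active genes. Both groups share the deletion and a transgene, and neither has the endogenous locus. Each group had 2 libraries. The series title concerns how this lysine counters Polycomb repression, and the comparison made here is H3.2-K4R against H3.2-WT.

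Each synthetase works in an ATP-driven reaction of 2 parts: it first activates its amino acid and then joins it to the end of the tRNA. The enzymes fall into classes I and II, which differ in the fold of the catalytic domain. The genes are encoded in the nucleus for both the cytosol and the mitochondria, and many amino acids have a separate mitochondrial enzyme, marked by the ending -m in current symbols. In animals, part of the cytosolic enzymes are held together with the scaffold proteins AIMP1, AIMP2 and AIMP3 in a multisynthetase complex. Synthetases are needed in every cell that makes protein.

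Depth ran from 33882742 to 45509930 counted read pairs per library, of which 20738 to 34837 fell on the 22 synthetase genes. H3.2-K4R replicate 2 stood apart on the first principal component of all tested genes, at 75.8, against -45.5 to 0.691 in the other libraries. Of 15 markers of neurons, glia, muscle, epidermis, trachea and hemocytes, 14 were found and 0 of these were at 0 in all libraries. Their summed level was 21002 and 19817 CPM (counts divided by library size, the usual unit for comparing libraries) in H3.2-WT against 17276 and 15001 CPM in H3.2-K4R, and the part that this difference plays in the results was not tested. The muscle genes Act57B, Mhc and Mlc2 made up most of that sum, with Act57B at 11657 and 10040 CPM against 8620 and 7162 CPM. Single markers differed in direction: 8 of the 14 had negative and 6 positive log2 fold changes, with a median of -0.15, and ple, an epidermal and neuronal gene of dopamine synthesis, had 98.4 and 78.3 CPM against 149 and 132 CPM. Markers of early and adult stages summed to between 1.49 and 12.9 CPM in a library. The labels do not state whether the libraries of a group stem from different collections of embryos, so the spread behind each p-value may be technical.

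The names in the table hide which compartment an enzyme serves. All 22 symbols were found in RefSeq (assembly Release 6), and by the symbols given there 15 genes encode cytosolic and 7 encode mitochondrial enzymes. Aats-ala-m and Aats-tyr-m carry the mitochondrial ending already. The other 5 do not: Aats-met is now MetRS-m, Aats-ser is SerRS-m, Aats-phe is PheRS-m, Aats-leu is LeuRS-m and Aats-pro is ProRS-m. The cytosolic enzymes for methionine, serine, phenylalanine and leucine stand in the table under numbers of the CG series and are given further down as genes outside the naming rule. The genes lie on 2L (3), 2R (5), 3L (6), 3R (5) and X (3).

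All 22 genes passed the filter on low counts, with 35 to 4881 read pairs in a library. Levels of different genes were compared per kb of exon. Over the 4 libraries, the mean level of cytosolic genes ran from 5.68 CPM per kb for Aats-cys to 29.2 CPM per kb for Aats-gly, with a median of 12.1 CPM per kb. Mitochondrial genes were lower in general, from 1.18 CPM per kb for Aats-pro to 17.6 CPM per kb for Aats-phe, with a median of 3.78 CPM per kb. Among the 22 genes, Aats-phe was thus the only mitochondrial one whose mean over the 4 libraries lay within the cytosolic range. In H3.2-WT alone, Aats-tyr-m had a mean of 7.42 CPM per kb, above Aats-cys at 5.56. Outside the naming rule the ranges also met, with CG31739 (AspRS-m) at 9.06 and CG15100 (cytosolic MetRS) at 4.44 CPM per kb over the 4 libraries. After Aats-gly, with 28.0 and 27.4 CPM per kb in H3.2-WT against 29.0 and 32.3 CPM per kb in H3.2-K4R, came Aats-lys, Aats-thr, Aats-asp and Aats-tyr, with means between 19.5 and 23.2 CPM per kb. The ranges of these 4 genes over the libraries overlapped, so their order is not firm. The lowest cytosolic genes, Aats-gln, Aats-his and Aats-cys, lay at means of 6.23, 6.03 and 5.68 CPM per kb, again with overlapping ranges.

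**Figure D1:**
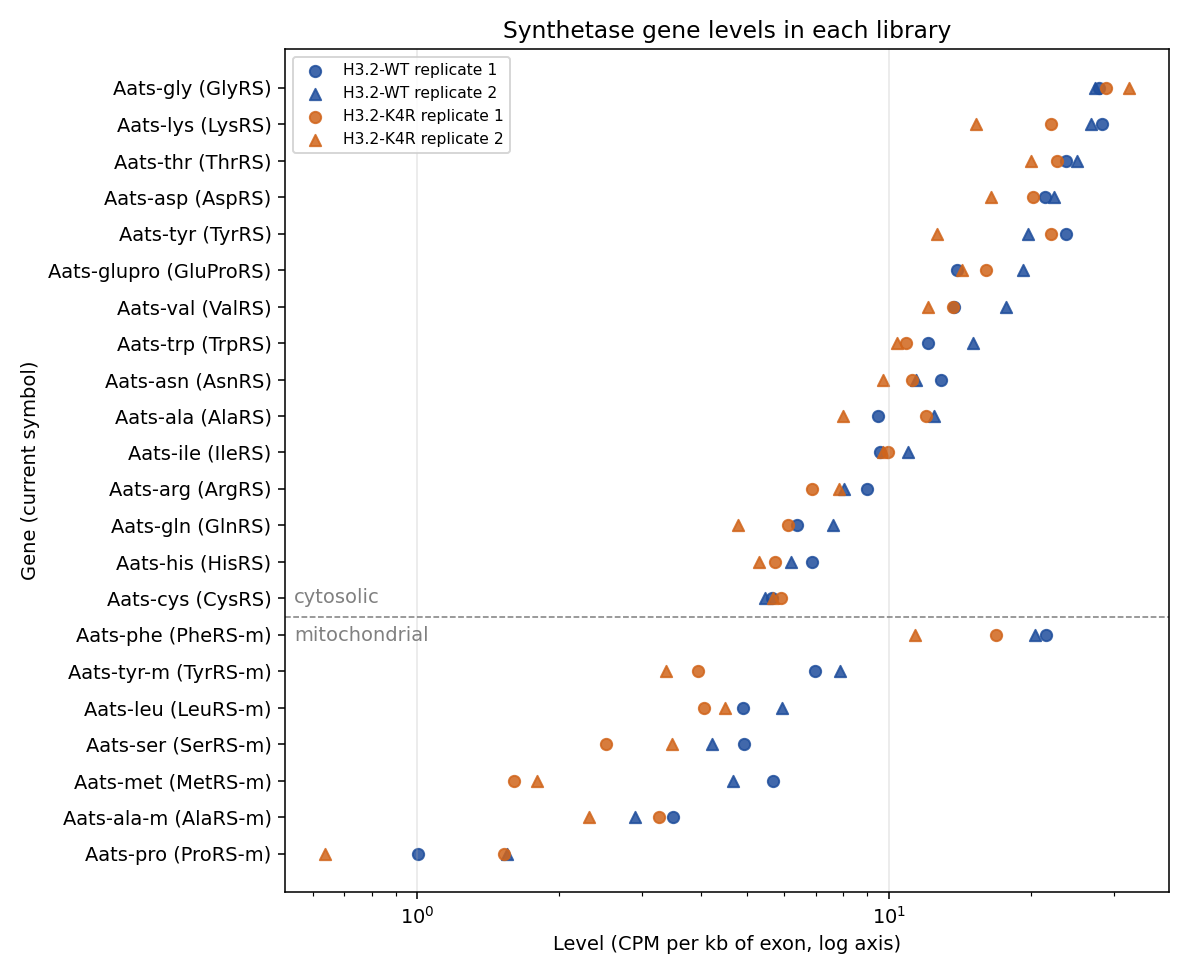
Level of each of the 22 synthetase genes in each of the 4 libraries, in CPM per kb of exon on a log axis, ordered by mean level within the cytosolic and the mitochondrial enzymes; each point is 1 library. Both H3.2-K4R points of Aats-met and Aats-tyr-m lie clearly left of both H3.2-WT points, while the points of Aats-gly, Aats-ile and Aats-cys lie close together.

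Across the family, 20 of 22 genes had a negative log2 fold change in H3.2-K4R, most of them small. Among these 22 genes the most negative values were those of mitochondrial enzymes. The 8 mitochondrial genes outside the naming rule, given further down, had a median of -0.15, with 3 values positive. By the edgeR quasi-likelihood test, 0 of the 22 genes rose and 0 fell, where 0.588% of all tested genes passed. The threshold was a Benjamini-Hochberg adjusted p of 0.05 over all 11562 tested genes. Adjusted p ran from 0.0760 for Aats-met to 0.918 for Aats-cys. At an unadjusted p under 0.05, 4 were lower and 0 higher, where 9.2% of all tested genes were lower and 7.68% higher. DESeq2 called 2 of them lower, Aats-met and Aats-tyr-m, where 3.07% of all genes were lower, and limma-voom called 0, where it called 0.874% of all genes higher and 0.623% lower. The median log2 fold change was -0.25 over the 22 genes and -0.02 over all tested genes, of which 51.9% had a negative value. Levels are totals over whole embryos, in which fewer cells of a type and less RNA per cell cannot be told apart.

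Both H3.2-K4R libraries lay below both H3.2-WT libraries in 14 genes and above them in 2, where 27.5% and 23.6% of all tested genes did so, and the groups overlapped in 6. In 14 of the 22 genes the lowest of the 4 libraries was H3.2-K4R replicate 2, the library that stood apart, as it was in 34.6% of all tested genes. Without that library 16 of 22 values were negative and the median was -0.15. Without H3.2-K4R replicate 1 the median was -0.39 and edgeR called 4 genes lower, Aats-met, Aats-tyr-m, Aats-phe and Aats-lys (adjusted p between 0.0285 and 0.0480), where 4.91% of all tested genes were lower. Of all tested genes, 0.0494% were lower without H3.2-WT replicate 1, 3.8% with no filter on low counts and 6.56% with the replicate number as a block, and the synthetases called lower in those fits numbered 0, 2 and 4.

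**Figure D2:**
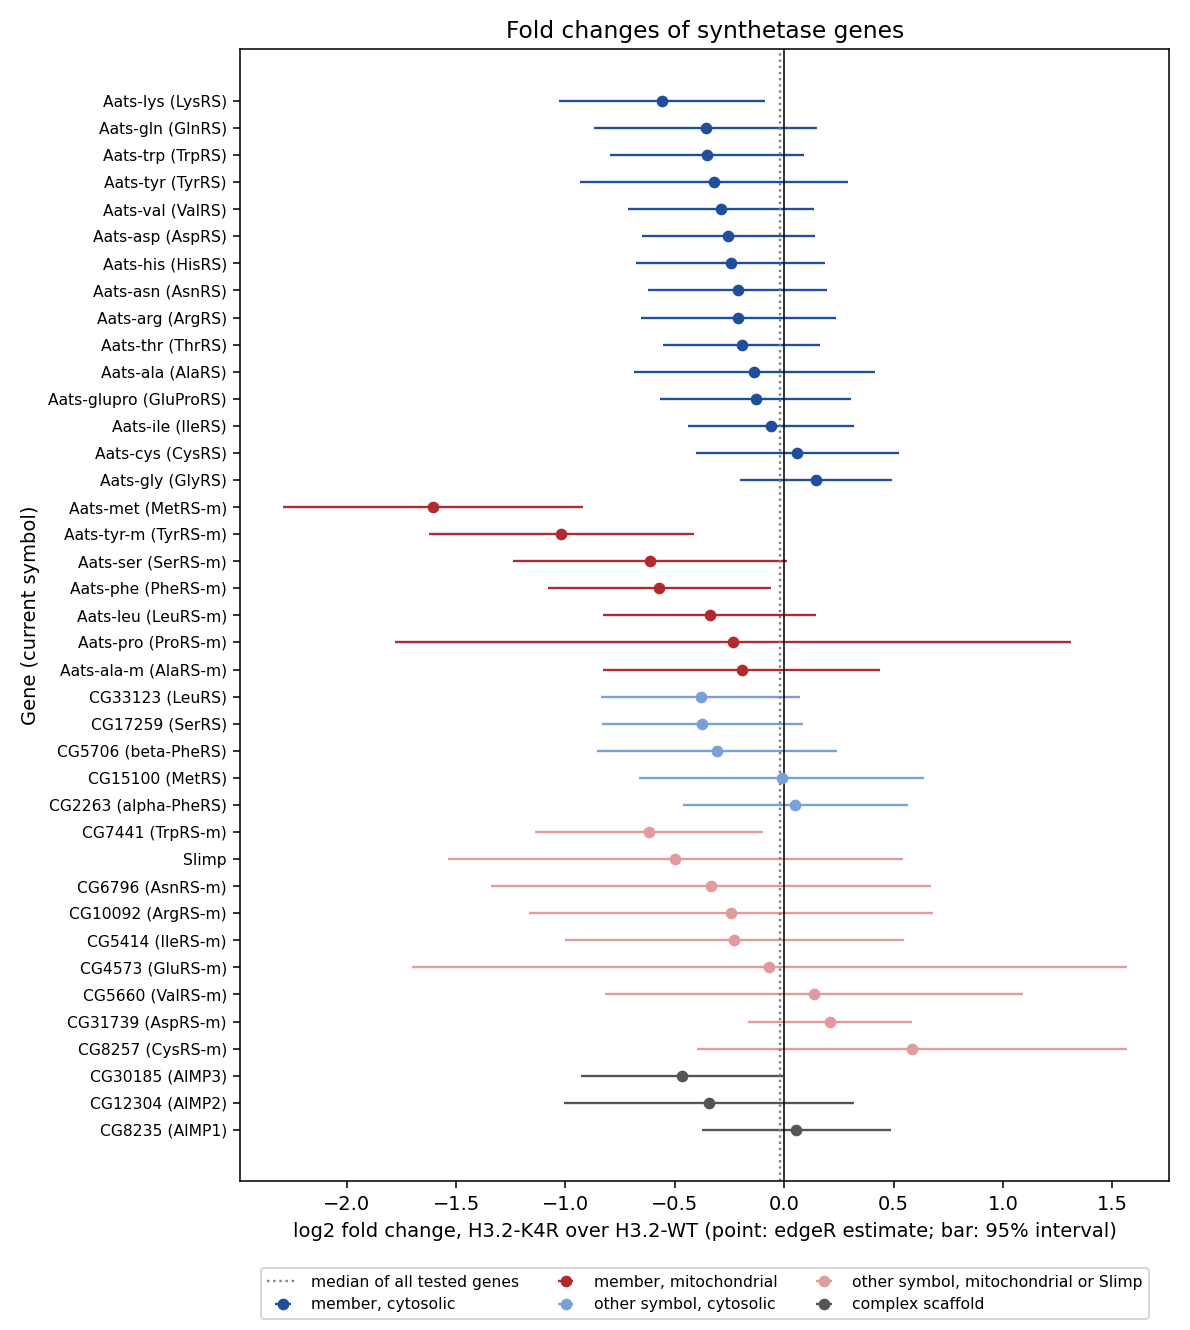
Log2 fold change in H3.2-K4R relative to H3.2-WT for the 22 synthetase genes, 14 synthetase or related genes under other symbols and 3 scaffold genes; points are edgeR estimates, bars are 95% intervals, and the dotted line is the median of all tested genes at -0.02. The intervals of Aats-met, Aats-tyr-m, Aats-phe and Aats-lys end below 0, as do those of CG7441 (TrpRS-m) and CG30185 (AIMP3), and the others cross it. The intervals are not adjusted for the number of genes. Before adjustment 9.2% of all tested genes were lower, and none of the genes shown passed in edgeR after it.

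Among mitochondrial enzymes, Aats-met stood lowest. It encodes MetRS-m, which loads the methionine tRNA used both to start and to extend the proteins made in mitochondria. The gene lies on 3R, in dm6 at 14251383 to 14259991 on the minus strand, with 6 exon blocks and 1974 bases of exon. The reference annotation, from Ensembl, gives it another span than the table, with 3 transcripts, and so pairs outside the table's exons were not counted. In the order of the replicates it had 382 and 428 read pairs in H3.2-WT against 135 and 128 in H3.2-K4R, which is 11.2 and 9.23 CPM against 3.17 and 3.54 CPM. The groups did not overlap, and libraries of 1 group lay close together. The mean level in H3.2-K4R was 32.8% of that in H3.2-WT, and the log2 fold change was -1.61 ± 0.30 (SE, n = 2 per group; 95% interval -2.29 to -0.92; edgeR adjusted p = 0.0760). DESeq2 gave -1.58 with an adjusted p of 0.00134, and limma-voom -1.59 with 0.0515. Over all 10 alternatives the log2 fold change lay between -1.74 and -1.45 and the adjusted p between 8.22e-05 and 0.371, with 4 of them past the threshold. Leaving out H3.2-WT replicate 1 or replicate 2 gave adjusted p values of 0.371 and 0.343, and leaving out H3.2-K4R replicate 1 gave 0.0285.

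Aats-tyr-m encodes TyrRS-m, the tyrosine enzyme of mitochondria (2R, 24781726 to 24783500). Its level was 10.7 and 12.1 CPM in H3.2-WT against 6.08 and 5.20 CPM in H3.2-K4R, so that the mean was 49.3% of that in H3.2-WT and the groups did not overlap. The log2 fold change was -1.02 ± 0.26 (SE, n = 2 per group; 95% interval -1.62 to -0.41), with an edgeR adjusted p of 0.145, a DESeq2 adjusted p of 0.0449 and a range over the alternatives of 0.00959 to 0.566.

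Aats-ser, the gene of SerRS-m (3R, 15340667 to 15343218), lay at 12.6 and 10.8 CPM in H3.2-WT against 6.40 and 8.85 CPM in H3.2-K4R. Its groups were also separate, with a log2 fold change of -0.61 ± 0.27 (SE; edgeR adjusted p = 0.304). Aats-phe encodes PheRS-m, which acts as a single chain, unlike the cytosolic phenylalanine enzyme with its alpha and beta subunits. It is the most abundant mitochondrial gene of the family (2R, 13968308 to 13969902). Its level was 33.0 and 31.2 CPM in H3.2-WT against 25.8 and 17.3 CPM in H3.2-K4R, a log2 fold change of -0.57 ± 0.22 (SE; edgeR adjusted p = 0.251). Here H3.2-K4R replicate 2 was much lower than replicate 1: without replicate 2 the log2 fold change was -0.31 and without replicate 1 it was -0.89.

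Differences were small in the remaining mitochondrial genes. Aats-leu, the gene of LeuRS-m (3L, 4825853 to 4829038), lay at 14.8 and 17.9 CPM in H3.2-WT against 12.3 and 13.6 CPM in H3.2-K4R. The groups were separate, but the log2 fold change of -0.34 ± 0.21 (SE) did not pass. The gene of AlaRS-m, Aats-ala-m (3L, 5146098 to 5149852), overlapped between the groups, at 11.3 and 9.38 against 10.5 and 7.50 CPM. Aats-pro, the gene of ProRS-m (3L, 2650161 to 2651850), also overlapped, at 1.53 and 2.35 against 2.32 and 0.968 CPM. With 35 to 109 read pairs in a library it was the most thinly counted gene of the family, and its 95% interval ran from -1.78 to 1.31. Its log2 fold change was -1.0 without H3.2-K4R replicate 1 and 0.26 without replicate 2. The median over the 7 mitochondrial genes was -0.57. All 7 values were negative, as were those of 51.9% of all tested genes. The groups were separate in 5, each time with H3.2-K4R lower, and 27.5% of all tested genes were separate in that direction. Without H3.2-K4R replicate 1 the median was -0.89.

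In the cytosolic enzymes the largest difference was that of Aats-lys, which encodes LysRS (X, 9606363 to 9608884), a class II enzyme and in animals a member of the complex. In humans its gene also provides the mitochondrial enzyme. Its level was 64.2 and 60.9 CPM in H3.2-WT against 50.1 and 34.7 CPM in H3.2-K4R. The groups did not overlap, and H3.2-K4R replicate 2 was again far below replicate 1. The log2 fold change was -0.56 ± 0.20 (SE, n = 2 per group; 95% interval -1.03 to -0.09; edgeR adjusted p = 0.233), and it was -0.32 without H3.2-K4R replicate 2 and -0.85 without replicate 1.

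Of the 6 members known from the animal complex, the largest protein is that of Aats-glupro. It encodes GluProRS, which joins the glutamate and the proline enzyme in a single chain (3R, 23952136 to 23958391). It lay at 76.3 and 105 CPM in H3.2-WT against 87.8 and 78.1 CPM in H3.2-K4R, so that the groups overlapped, with a log2 fold change of -0.13 ± 0.19 (SE). Aats-gln, the gene of the glutamine enzyme (3R, 25263267 to 25265721), had 15.7 and 18.7 against 15.0 and 11.8 CPM, and Aats-asp, the gene of the aspartate enzyme (2R, 12877004 to 12883168), had 48.6 and 50.8 against 45.8 and 37.4 CPM. Both were separate between the groups, with log2 fold changes of -0.36 ± 0.22 and -0.26 ± 0.17 (SE). Aats-arg, the gene of the arginine enzyme (X, 15841769 to 15844145), had 19.2 and 17.1 against 14.7 and 16.7 CPM. Aats-ile, the gene of the isoleucine enzyme, which proofreads its product (3L, 22288665 to 22292810), had 37.4 and 42.7 against 38.8 and 37.9 CPM, with overlap. The median of these 6 genes was -0.23, against -0.21 in the 9 cytosolic genes outside the complex.

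Outside the complex, Aats-gly and Aats-cys were the only members of the family with positive values. Aats-gly encodes GlyRS, whose human counterpart serves both compartments and is mutated in a form of inherited neuropathy (3L, 15095142 to 15097686). Its level was 71.2 and 69.7 CPM in H3.2-WT against 73.7 and 82.2 CPM in H3.2-K4R. The groups did not overlap, but the log2 fold change of 0.15 ± 0.15 (SE; 95% interval -0.20 to 0.49; edgeR adjusted p = 0.678) was as small as its error. Aats-cys, for the cysteine enzyme (2R, 16143147 to 16145906), differed little between libraries, at 13.9 and 13.4 against 14.5 and 13.9 CPM.

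The genes of the threonine, valine and alanine enzymes had negative values. Aats-thr (2L, 12103751 to 12107170) had 69.0 and 72.7 CPM in H3.2-WT against 65.9 and 57.9 CPM in H3.2-K4R. Aats-val (2R, 13198850 to 13202709) had 47.0 and 60.5 against 46.6 and 41.3 CPM, and Aats-ala (2L, 8378262 to 8381764) 31.2 and 41.1 against 39.4 and 26.4 CPM. The groups were separate for Aats-thr and Aats-val and overlapped for Aats-ala, with log2 fold changes of -0.19 ± 0.16, -0.29 ± 0.18 and -0.14 ± 0.24 (SE).

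The remaining cytosolic genes serve the aromatic amino acids, histidine and asparagine. Aats-trp (3R, 9265027 to 9266904), for tryptophan, had 20.4 and 25.4 CPM in H3.2-WT against 18.3 and 17.5 CPM in H3.2-K4R, a log2 fold change of -0.35 ± 0.19 (SE). Aats-tyr (3L, 16417349 to 16419302), for tyrosine, had 42.0 and 34.9 against 39.1 and 22.5 CPM, an overlap in which H3.2-K4R replicate 2 alone was low. Aats-his (X, 18515428 to 18520445), for histidine, had 19.7 and 17.7 against 16.4 and 15.2 CPM, and Aats-asn (2L, 19129469 to 19131954), for asparagine, 30.6 and 27.1 against 26.7 and 23.1 CPM. Both were separate between the groups by narrow gaps, at log2 fold changes of -0.24 ± 0.19 and -0.21 ± 0.18 (SE). Aats-his shares 255 bases of exon on the same strand with Bx, and Aats-asp shares 154 with the noncoding gene CR43468, so pairs in those stretches were not counted for either gene.

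The precision of these values sets what can be said of the genes that did not pass. In 16 of 22 genes the whole 95% interval lay between -1 and 1 on the log2 scale, so that a doubling or a fall by 1 log2 unit lay outside it. The share of all tested genes with an interval inside those bounds was not computed. In 4 genes, Aats-met, Aats-tyr-m, Aats-phe and Aats-lys, the interval ended below 0, and in 18 it covered 0. The interval and the p before adjustment rest on the same statistic, so this is no separate result. These 4 are the genes counted above as lower before adjustment, as were 9.2% of all tested genes. None of the 4 passed in edgeR after adjustment. Classes I and II had medians of -0.33 (10 genes) and -0.23 (11 genes), with GluProRS, which has domains of both, left out.

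The naming rule leaves out 13 synthetase genes with CG numbers and Slimp, a relative of SerRS in insect mitochondria that does not load tRNA. In these 14 genes, edgeR called 0 higher and 0 lower (1 lower with p under 0.05 before adjustment; 0 by DESeq2 and by limma-voom), and the median log2 fold change was -0.24. Over all tested genes, 9.2% were lower in edgeR with p under 0.05 before adjustment. The 5 cytosolic genes had a median of -0.31. Among them CG33123 (LeuRS) lay at 27.2 and 36.6 CPM in H3.2-WT against 25.1 and 23.9 CPM in H3.2-K4R, with a log2 fold change of -0.38 ± 0.20 (SE), and CG17259 (SerRS) had -0.37 ± 0.20. Of the subunits of the cytosolic phenylalanine enzyme, CG5706 (beta-PheRS) had -0.31 ± 0.24 and CG2263 (alpha-PheRS) 0.05 ± 0.22. CG15100, the cytosolic MetRS, had 12.7 and 17.6 against 18.5 and 11.6 CPM, with -0.01 ± 0.28. None of the 5 passed in edgeR, DESeq2 or limma-voom.

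The 8 mitochondrial genes under CG numbers did not share the median of the mitochondrial genes with Aats- names: theirs was -0.15, with 5 values negative and 3 positive, against -0.57 there. The difference between these lists was not tested. CG7441 (TrpRS-m) had 13.8 and 17.8 CPM in H3.2-WT against 10.4 and 10.2 CPM in H3.2-K4R, with separate groups and a log2 fold change of -0.62 ± 0.23 (SE; edgeR adjusted p = 0.235). CG31739 (AspRS-m) had 35.7 and 38.6 against 40.9 and 45.0 CPM, also separate but higher in H3.2-K4R, at 0.21 ± 0.16. CG8257 (CysRS-m) had the largest positive value, 0.58 ± 0.42, which rested on H3.2-K4R replicate 2 at 8.80 CPM, against 3.58 to 5.11 CPM in the other libraries, and was -0.03 without it. CG5660 (ValRS-m) had 0.14 ± 0.41, CG4573 (GluRS-m) -0.07 ± 0.71, CG5414 (IleRS-m) -0.23 ± 0.33, CG10092 (ArgRS-m) -0.24 ± 0.40 and CG6796 (AsnRS-m) -0.33 ± 0.43, all with few counts. Slimp had 3.52 and 3.08 against 2.16 and 2.52 CPM, at -0.50 ± 0.45. The scaffold genes CG30185 (AIMP3), CG12304 (AIMP2) and CG8235 (AIMP1) had -0.47 ± 0.20, -0.34 ± 0.29 and 0.06 ± 0.19, with edgeR adjusted p of 0.293, 0.598 and 0.919. They are short, with 739, 1150 and 1036 bases of exon, and fold change moved with exon length, as given below. With that trend removed from each library, their log2 fold changes were -0.18, -0.13 and 0.30.

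For 14 combinations of a cytosolic and a mitochondrial gene for the same amino acid, the ratio of mitochondrial to cytosolic level was taken within each library, which removes the library size. Aats-phe enters with each of the cytosolic subunit genes CG5706 and CG2263, so the combinations are not all independent. Aats-glupro was not combined with Aats-pro or CG4573 (GluRS-m). The ratio was lower in both H3.2-K4R libraries in 3 combinations, for methionine, tyrosine and tryptophan, higher in both in 2, for aspartate and valine, and overlapped in 9. No share over other gene combinations was computed for such ratios, and for the levels of single genes 27.5% of all tested genes were separate and lower and 23.6% separate and higher, so the counts of 3 and 2 of 14 are given as a description. For methionine the log2 ratio of Aats-met to CG15100 was -0.18 and -0.93 in H3.2-WT against -2.54 and -1.71 in H3.2-K4R. For tyrosine the log2 ratio of Aats-tyr-m to Aats-tyr was -1.97 and -1.53 in H3.2-WT against -2.68 and -2.11 in H3.2-K4R. An exact two-sided permutation test of 2 against 2 libraries cannot give a p below 0.333, so none was run. Summed over the 22 genes, mitochondrial enzymes made up 13.6% and 12.4% of the synthetase CPM in H3.2-WT against 10.1% and 9.93% in H3.2-K4R. Without Aats-met the shares were 12.1% and 11.3% against 9.67% and 9.37%. Compartments follow the current symbols, and no separate mitochondrial gene was found for glutamine, glycine, histidine, lysine or threonine. Any mitochondrial product of the genes for these amino acids therefore counts as cytosolic in the shares. The 22 genes hold 7 of the 15 mitochondrial and 15 of the 20 cytosolic enzyme genes. Over all 35 of these genes the mitochondrial share was 18.6% and 18.3% in H3.2-WT against 17% and 17.8% in H3.2-K4R, so the gap seen within the 22 genes was much smaller over the whole set.

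Fold change also moved with exon length in these libraries. Over the 5528 genes whose log2 CPM reached 4, Spearman's rho between exon length and log2 fold change was 0.395, and over the 22 synthetase genes it was 0.525. The 22 genes were taken without that cut, and several, Aats-met and Aats-tyr-m among them, lie under it. Genes share their libraries, and no p is attached to these values. The mitochondrial genes are shorter than the cytosolic ones, with a median exon length of 1974 against 2455 bases. With the trend removed from each library, the median was -0.20 over the 22 genes, -0.18 over the cytosolic and -0.40 over the mitochondrial genes, against 0.03 over all tested genes. Aats-met kept -1.50 (adjusted p = 0.0736) and Aats-tyr-m -0.85 (adjusted p = 0.208) in that fit.

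**Figure D3:**
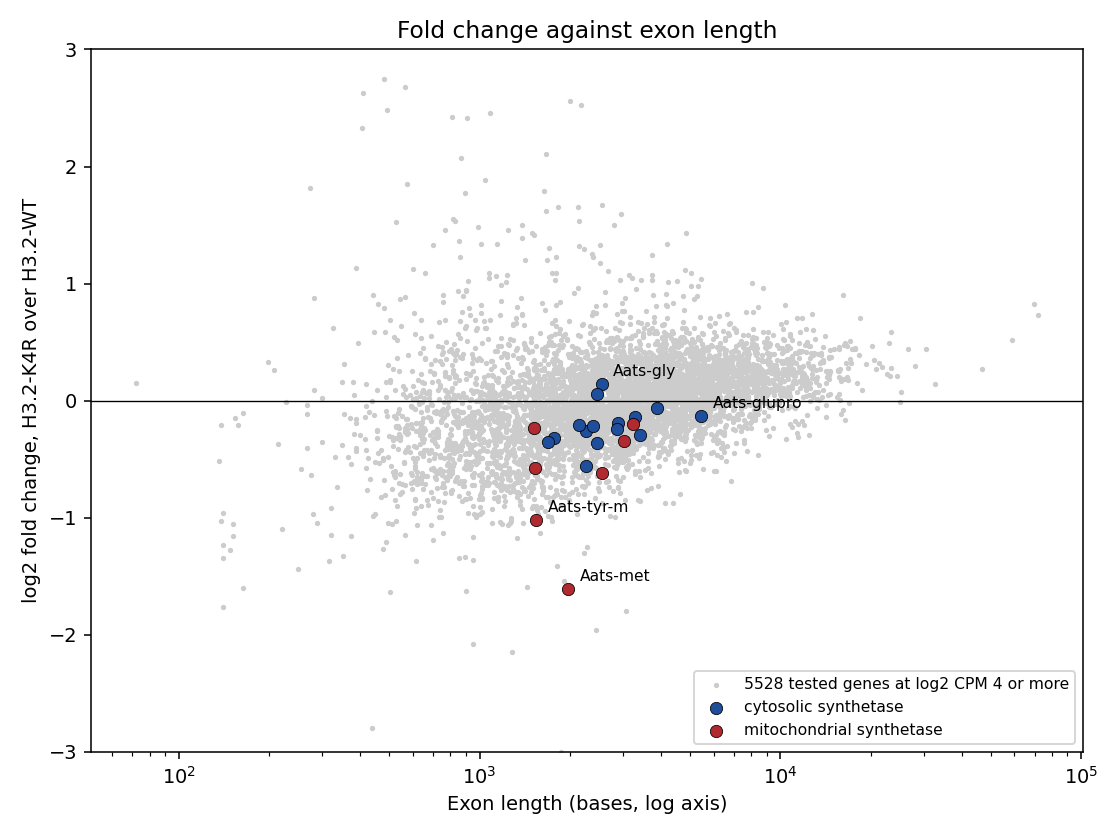
Log2 fold change in H3.2-K4R relative to H3.2-WT against exon length in bases on a log axis, for the 5528 tested genes whose log2 CPM reached 4 (grey; 5 lie beyond the axis) and the 22 synthetase genes (coloured by compartment). Short grey genes lie lower than long ones on the whole. Aats-met and Aats-tyr-m lie below most grey genes of their length, but both are under the level cut of the grey genes.

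Other genes of protein synthesis were set beside the synthetases, with values from the same edgeR fit over all genes. For these lists and those that follow, the shares over all tested genes are given first. With p under 0.05 before adjustment in edgeR, 9.2% were lower and 7.68% higher. DESeq2 called 3.07% lower and 3.58% higher, and limma-voom 0.623% lower and 0.874% higher. Of 88 tested genes named as cytosolic ribosomal proteins, 0 rose and 0 fell (64 lower with p under 0.05 before adjustment; 43 lower by DESeq2 and 6 by limma-voom), with 86 negative values and a median of -0.62, against -0.21 in the cytosolic synthetases. RpS5b had -2.08 ± 0.39, RpL39 -1.04 ± 0.20 and RpL10Ab -0.97 ± 0.20. RpS5b differed within H3.2-WT, at 63.6 and 26.2 CPM, and had -1.29 without H3.2-WT replicate 1 and -2.58 without replicate 2. Of 72 mitochondrial ribosomal protein genes, 0 passed in edgeR, and 36 were lower with p under 0.05 before adjustment. DESeq2 called 3 lower and limma-voom 1. Their median was -0.44, against -0.57 in the 7 mitochondrial synthetases with Aats- names and -0.15 in the 8 under CG numbers. mRpL36 had -1.05 ± 0.19, mRpL23 -1.21 ± 0.29 and mRpS18A -0.80 ± 0.21. Both ribosomal lists are shorter in exon length (medians of 910 and 783 bases) than the synthetases (2454 bases). With the length trend removed their medians were -0.37 and -0.20. In that fit the cytosolic and mitochondrial synthetases with Aats- names lay at -0.18 and -0.40. Those under CG numbers lay at -0.20 and -0.04.

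**Figure D4:**
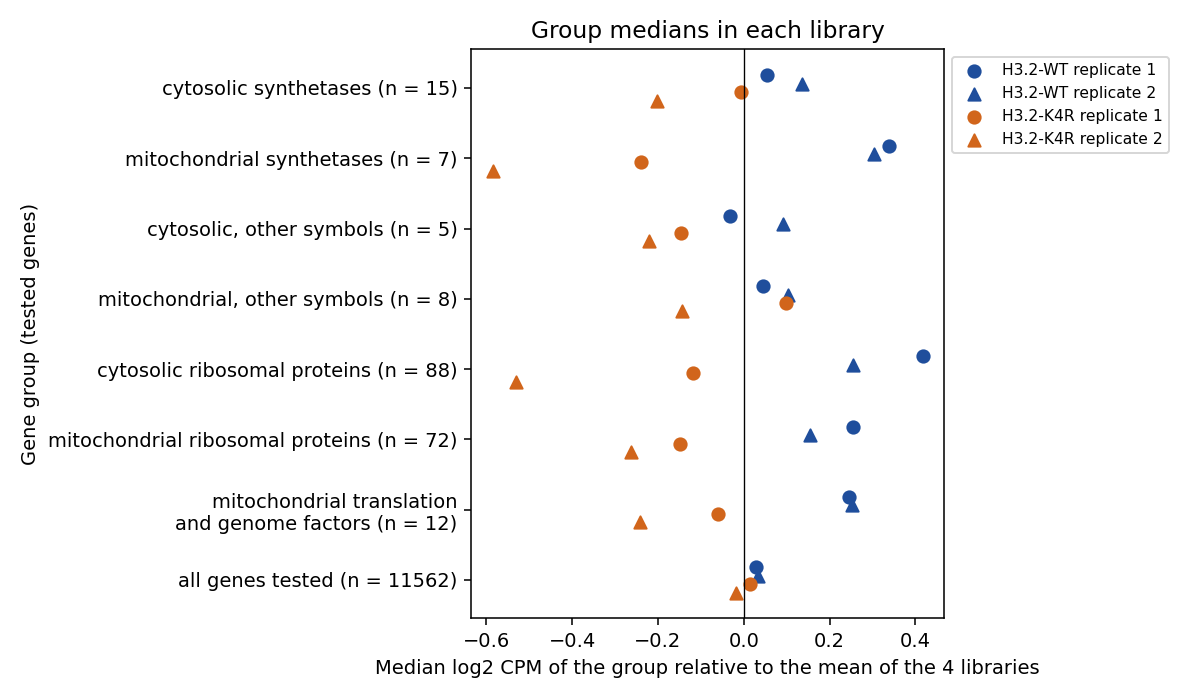
Median log2 CPM of each gene group in each library, relative to the mean of the 4 libraries for each gene; points are libraries and n is the number of tested genes. The 7 mitochondrial synthetases with Aats- names lie at 0.34 and 0.30 in H3.2-WT against -0.24 and -0.59 in H3.2-K4R. The 8 under other symbols lie at 0.04 and 0.10 against 0.10 and -0.14. All tested genes lie near 0 in each library.

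Of 12 tested mitochondrial translation and genome factors, 0 passed in edgeR (4 lower with p under 0.05 before adjustment; 1 lower by DESeq2 and 0 by limma-voom), 11 were negative and the median was -0.33. EF-G2 (mRRF2), a factor that helps to recycle ribosomes, had 12.0 and 11.5 CPM in H3.2-WT against 5.79 and 5.70 CPM in H3.2-K4R, a log2 fold change of -1.03 ± 0.25. The elongation factor genes ico (mEFG1) and CG12736 (mEFTu2) had -0.69 ± 0.21 and -1.29 ± 0.44. The value of CG12736 rested on H3.2-K4R replicate 2, at 4.01 CPM against 11.8 CPM in replicate 1: it was -0.71 without replicate 2 and -2.28 without replicate 1. Among 20 tested genes of tRNA processing and modification, 0 passed in edgeR (1 higher and 0 lower with p under 0.05 before adjustment; 0 by DESeq2 and limma-voom), with a median of -0.02. Those with the lowest p were CG5626 (Tsen54), of the tRNA splicing endonuclease, at 0.99 ± 0.39, Elp3, of the Elongator complex that modifies tRNA, at -0.59 ± 0.27, and the tRNA methyltransferase gene Nsun2 at -0.40 ± 0.19.

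Uncharged tRNA is sensed by Gcn2, a kinase that starts the integrated stress response, and synthetase genes are known targets of its transcription factor ATF4, in flies the product of crc. Of 13 genes of this response, 1 rose, where 0.415% of all tested genes rose, and 0 fell (2 higher with p under 0.05 before adjustment; 2 higher by DESeq2 and 1 by limma-voom), with a median of -0.01. The gene that rose was Xrp1, a transcription factor gene of the stress and cell competition response, at 839 and 732 CPM in H3.2-WT against 1710 and 1705 CPM in H3.2-K4R (1.12 ± 0.15 SE; edgeR adjusted p = 0.0291). Its call was lost without H3.2-WT replicate 1 (adjusted p = 0.0877) or replicate 2 (adjusted p = 0.305), while its log2 fold change was 1.23 and 1.02 in those fits, which called 26 and 1 genes higher in all. Thor, which encodes the translation inhibitor 4E-BP, had 330 and 211 against 532 and 437 CPM, at 0.84 ± 0.22, and did not pass (edgeR adjusted p = 0.152; 4 of 10 alternatives passed). The asparagine-synthetase gene had 7.72 and 9.03 against 14.9 and 10.5 CPM, at 0.60 ± 0.27. Of 22 growth control genes of the TOR and Myc pathways, 0 passed in edgeR (3 higher with p under 0.05 before adjustment; 3 by DESeq2 and 0 by limma-voom), with a median of 0.10. Sesn, an inhibitor of TOR, had 0.67 ± 0.15, Mnt, a Myc antagonist, 0.41 ± 0.13, and CG13624 (REPTOR), a transcription factor held back by TOR, 0.37 ± 0.13.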

How the data were processed

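The deposited table holds raw counts, which the authors made with featureCounts of Subread 2.0.6, per the file headers: each read pair counted as 1 fragment, with strand setting 1, in exons grouped by gene of a dm6 annotation, without the options for multi-mapping pairs or pairs over several genes. The submitters' processing notes also name STAR 2.7.7a and SAMtools 1.9. The columns with HWT in their names were assigned to H3.2-WT by replicate number, since the series has no other wild-type group. Libraries held 33882742 to 45509930 counts.

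Of 16727 genes, 11562 were kept by filterByExpr (minimum count 10, minimum total 15). edgeR 4.0.16 in R 4.3.3 compared H3.2-K4R with H3.2-WT by TMM scaling and the quasi-likelihood test without a block, with Benjamini-Hochberg adjustment over all tested genes. The SE is the fold change over the root of the F statistic. CPM uses the TMM library sizes. Alternatives were DESeq2 1.42.0, its size factors in edgeR, limma-voom (limma 3.58.1), no filter, each library left out, a replicate block, and removal of each library's exon-length trend (a smoothed curve over genes whose log2 CPM reached 4). The edgeR test was tested on simulated data. Of genes changed by 1, 2 and 3 log2 units it recovered 36 of 67, 66 of 67 and 65 of 66. It called 6 of 11003 unchanged genes. The simulated data had no outlying library and no exon-length trend, and only genes above a level cut were changed. These rates therefore need not hold for the measured libraries.

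The text names all 22 genes, all synthetases under other symbols, the scaffold genes and, of each other list, the genes past the threshold and those with the lowest p, up to 3. By symbol, 22 of 24 tRNA processing genes, 13 of 14 mitochondrial translation factors and 14 of 15 late embryo markers were found in the table. Members and lists were chosen with earlier results of these data known.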

Additional observations from a re-analysis of the deposited data

How the results depend on the processing

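The log2 fold changes of all 22 synthetase genes kept their sign under 8 of 10 alternatives. Without H3.2-K4R replicate 2, 4 turned positive (Aats-ala, Aats-ala-m, Aats-tyr and Aats-pro), and without H3.2-WT replicate 2, 4 did so (Aats-ala, Aats-ile, Aats-glupro and Aats-pro); none of these passed in any fit. The edgeR test called 0 synthetase genes lower, where it called 0.173% of all tested genes lower. At an unadjusted p under 0.05, 4 were lower, where 9.2% of all tested genes were. The count called lower was 2 with no filter, where 3.8% of all genes were lower, and 2 with DESeq2, where 3.07% were. With a replicate block it was 4, where 6.56% of all genes were lower. The cause of these differences was not tested. With 1 library left out, the median ran from -0.39 to -0.15 over the 22 genes, from -0.32 to -0.11 over the cytosolic and from -0.89 to -0.41 over the mitochondrial genes, with the lowest value of each without H3.2-K4R replicate 1.

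Over all genes, 48 were called higher and 20 lower. The counts were 452 and 527 with no filter, 358 and 307 with DESeq2, 101 and 72 with limma-voom, 608 and 758 with the replicate block and 87 and 15 with the length trend removed. With 1 library left out they ran from 1 to 251 and from 0 to 587; the 0 came without H3.2-WT replicate 2, where 585 genes were lower in edgeR with p under 0.05 before adjustment. Deviations of same-numbered libraries from their group means correlated at 0.106 over genes, and the labels do not say that a number marks a shared collection, so the numbers were not taken as pairs. Early-stage markers summed to 12.9 (H3.2-WT) and 10.5 (H3.2-K4R) CPM in replicate 1, against 4.16 and 4.21 CPM in replicate 2. Much of this came from bcd, at 264 and 224 read pairs against 24 and 33, while osk had 40 and 6 against 9 and 21. Whether the number marks a batch was not tested. Depth limits the thinly counted genes: CG4573 (GluRS-m), with 41 to 64 read pairs in a library, and Aats-pro, with 35 to 109, had SEs of 0.71 and 0.67, against 0.16 for CG31739 (AspRS-m), with 1218 to 1789.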

Other observations

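The genes next to or overlapping the 22 synthetase genes, chosen by position from the count table, numbered 55, of which 48 were tested. Their median log2 fold change was -0.08, with 30 negative. Over all tested genes the median was -0.02, and 51.9% were negative. In edgeR 0 passed (lowest adjusted p = 0.156; 4 lower and 1 higher with p under 0.05 before adjustment; 1 by DESeq2 and 0 by limma-voom). Over all tested genes, edgeR gave 9.2% lower and 7.68% higher with p under 0.05 before adjustment. DESeq2 called 3.07% lower and 3.58% higher. Around Aats-met, the nearest gene above, CG14840, had 0 counts in all libraries. The nearest gene below, CG9616, had 22 and 77 read pairs in H3.2-WT against 39 and 95 in H3.2-K4R.

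CG33123, the cytosolic LeuRS gene (2L, 3510328 to 3514656), lies 225 bases from CG31954 on the same strand. CG31954, chosen after its values were seen, had 316 and 347 read pairs in H3.2-WT against 9 and 8 in H3.2-K4R (log2 fold change -5.26 ± 0.45 SE; edgeR adjusted p = 0.00947). CG17593, 215 bases from CG33123 on its other side, had -0.55 ± 0.15 (edgeR adjusted p = 0.157), and CG33123 itself had -0.38 ± 0.20 (edgeR adjusted p = 0.373).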
